A study of Mus musculus with 24 samples.

Results

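Oxidative phosphorylation is carried out by the protein complexes I to IV of the respiratory chain, which pass electrons from NADH and succinate to oxygen and pump protons across the inner mitochondrial membrane, and by complex V, the ATP synthase, which uses the proton gradient to make ATP. Most subunits are encoded in the nucleus and imported, and the rest are encoded by the mitochondrial genome. Naive mouse embryonic stem cells are known to use both glycolysis and respiration, and the balance is known to shift when they leave the naive state and again when muscle forms. The genes described here were the nuclear subunit genes. They were chosen by a rule on their names, which used no values, though earlier results of these data were known. The rule took protein-coding genes whose symbol begins with Nduf and a, b, c, s or v before a digit, and Sdha to Sdhd. It also took symbols beginning with Uqcr or Atp5, and those beginning with Cox, a digit from 4 to 8 and a, b or c. The rule found 81 of the 53465 genes in the table, 37 in complex I (NADH dehydrogenase), 4 in complex II (succinate dehydrogenase), 8 in complex III (cytochrome bc1), 16 in complex IV (cytochrome c oxidase) and 16 in complex V. Some labels are looser than the complexes: Ndufa4 is counted here with complex I by its name but is known as a subunit of complex IV, Cox7a2l is known as a supercomplex assembly protein, and Atp5s is a coupling factor of the ATP synthase. Cox4i1, Cox4i2, Cyc1, Cycs, Cyct, Ndufab1 and Atpif1 belong to the same machinery but fall outside the rule, and they are described apart.

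Mouse embryonic stem cells gave 24 RNA-seq libraries in 8 groups of 3, wild type (WT) and Atf3 knockout (KO), before differentiation (day 0) and on days 3, 6 and 9. Atf3 is a stress-responsive transcription factor. All groups came from stem cells grown with leukaemia inhibitory factor and the inhibitors CHIR99021 and PD0325901. The sources used here do not give the differentiation medium, the edited part of Atf3, the number of clones or the strain. They also do not say whether replicate libraries were separate cultures, so a p-value measures only how far these libraries scatter, and that scatter may be technical. These are bulk samples, so fewer cells of a type and less RNA per cell cannot be told apart. Values are FPKM, a read level per unit of gene length and of a depth value per library. Length here is the annotated exon bases of a gene, 5628 for Ndufb2 and 419 for Ndufa1. Where these exceed the transcript made, the level is understated, so levels of different genes compare only roughly. That depth value was not the number of recovered reads: it was 4.36e+06 against 7855630 in WT day 6 replicate 3. In WT day 9 replicate 1 it was 3.49e+07 against 25274433. How that value was set is not given here. Differences are between group means of log2(FPKM + 1). A gene is called changed where limma gave, after Benjamini-Hochberg adjustment across 15159 genes, an adjusted p under 0.05, in two-sided tests over 3 libraries against 3. The spread behind each test was estimated per gene in 1 fit over all 8 groups, not from the groups compared alone.

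Recovered reads numbered between 7855630 and 25274433 per library, with a median of 15611821. The 14 naive pluripotency genes fixed as markers summed to between 2907 and 3160 FPKM in the 6 libraries of day 0 and to at most 637 FPKM in every later library. Atf3 stood between 1.15 and 23.99 FPKM in the WT libraries and between 0.134 and 0.714 FPKM in 11 of 12 KO libraries. KO day 6 replicate 3 was the exception with 4.17 FPKM, and it also had the lowest member level of all libraries, so results that rest on it are given with and without it. Between 4.42% and 45.6% of the reads of a library fell in 3 rRNA-type genes, a sign of how well poly(A) RNA was selected. The members together held between 0.836% and 1.56% of the reads outside those 3 genes.

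Of the 81 members, 78 reached 1 FPKM in at least 3 libraries and were tested, and 74 were at 1 FPKM or more in all 24 libraries. The 3 that never reached 1 FPKM were Cox7b2, Cox8b and Cox8c, known as tissue-restricted forms of complex IV subunits. They were not tested. Exons of 28 members overlap another annotated gene, mostly on the opposite strand. The strand used in counting is not stated, so reads of Ndufa2 and Tmco6, Ndufs1 and Eef1b2, Atp5a1 and Haus1, or Cox6a2 and Itgad could not be told apart where they overlap.

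Respiratory subunit genes are known to share promoter elements bound by NRF1, by ETS factors such as GABP and by YY1, and the sequences below show which of these letters lay beside the start of members whose levels moved in different ways. RefSeq entries for GRCm38.p6 were matched for 68 of the 81 members, with 73 windows from 250 bases before to 50 bases after a start. The NRF1-type letters GCGCATG, searched on both strands, were found in 13 of the 73 windows (17.8%) and in 3.91% of all 32851 RefSeq windows of the same length. The ETS core CCGGAAG was found on either strand in 16 windows (21.9%), against 8.86% of all windows. The YY1 core AAGATGG was found in 11 windows (15.1%), against 6.34% of all windows. Uqcrc1, Sdhb and Atp5b fell on day 3, Atp5k rose in WT cells on day 6, and Cox7a2l rose in 5 of the 6 comparisons with day 0. Their windows are chr9:108936398-108936697 (plus strand) for Uqcrc1, chr4:140961021-140961320 (plus strand) for Sdhb, chr10:128083057-128083356 (plus strand) for Atp5b, chr5:108434350-108434649 (minus strand) for Atp5k and chr17:83514284-83514583 (minus strand) for Cox7a2l. Capitals mark the motif letters, on whichever strand they lie:
Uqcrc1: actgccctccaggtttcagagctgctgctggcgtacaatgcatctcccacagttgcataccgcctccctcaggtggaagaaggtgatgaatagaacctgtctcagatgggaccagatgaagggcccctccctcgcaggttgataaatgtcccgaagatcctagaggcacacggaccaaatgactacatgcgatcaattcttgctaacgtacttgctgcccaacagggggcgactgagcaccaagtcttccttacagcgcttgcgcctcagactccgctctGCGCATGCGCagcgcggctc
Sdhb: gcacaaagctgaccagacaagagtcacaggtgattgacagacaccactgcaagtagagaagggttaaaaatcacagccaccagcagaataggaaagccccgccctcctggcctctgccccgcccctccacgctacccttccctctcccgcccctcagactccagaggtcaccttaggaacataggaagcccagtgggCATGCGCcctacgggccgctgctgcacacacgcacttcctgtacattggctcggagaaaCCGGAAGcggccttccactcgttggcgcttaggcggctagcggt
Atp5b: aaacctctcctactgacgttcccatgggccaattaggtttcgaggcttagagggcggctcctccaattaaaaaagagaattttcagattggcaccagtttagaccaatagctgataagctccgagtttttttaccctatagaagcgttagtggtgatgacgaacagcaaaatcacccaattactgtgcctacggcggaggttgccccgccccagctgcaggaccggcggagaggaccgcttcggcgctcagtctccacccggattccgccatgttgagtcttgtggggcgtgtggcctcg
Atp5k: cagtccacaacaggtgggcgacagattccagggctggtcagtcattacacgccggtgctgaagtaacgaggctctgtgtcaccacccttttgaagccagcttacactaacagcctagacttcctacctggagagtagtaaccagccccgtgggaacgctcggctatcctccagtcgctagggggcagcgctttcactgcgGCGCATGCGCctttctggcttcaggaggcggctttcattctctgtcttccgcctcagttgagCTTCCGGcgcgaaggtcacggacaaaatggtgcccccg
Cox7a2l: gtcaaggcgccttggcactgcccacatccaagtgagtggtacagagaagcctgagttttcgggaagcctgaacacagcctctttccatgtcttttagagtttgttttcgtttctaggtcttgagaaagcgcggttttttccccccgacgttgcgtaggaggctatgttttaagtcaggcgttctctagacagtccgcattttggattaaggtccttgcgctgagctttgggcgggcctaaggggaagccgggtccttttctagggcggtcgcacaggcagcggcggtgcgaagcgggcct
In Uqcrc1 and in Atp5k the capitals near the start hold 2 overlapping NRF1-type matches, one on each strand. Sdhb held 1 NRF1-type and 1 ETS match, and Atp5k held 1 ETS match as well. The windows of Atp5b and Cox7a2l held none of the 3 sets of letters. A fall on day 3 was thus seen with these letters (Uqcrc1, Sdhb) and without them (Atp5b), and the matches are a description of the sequence only.

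By group means of these length-scaled values, complex III genes stood highest and complex I genes lowest in the stem cells of both genotypes. In each library the median log2 level of a complex's tested members was set against the median of all genes tested. On day 0 in WT cells complex III stood 4.29 ± 0.19 above that median (SD, n = 3), complex V 4.04 ± 0.11, complex IV 3.87 ± 0.07, complex II 3.48 ± 0.10 and complex I 2.96 ± 0.11. In KO cells on day 0 the values were 4.37 ± 0.01, 3.94 ± 0.06, 3.94 ± 0.06, 3.47 ± 0.03 and 2.96 ± 0.09 in the same order. The library medians of complexes IV and V overlapped in KO cells on day 0 and did not in WT cells, so their order was not settled at this number of libraries.

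**Figure D1:**
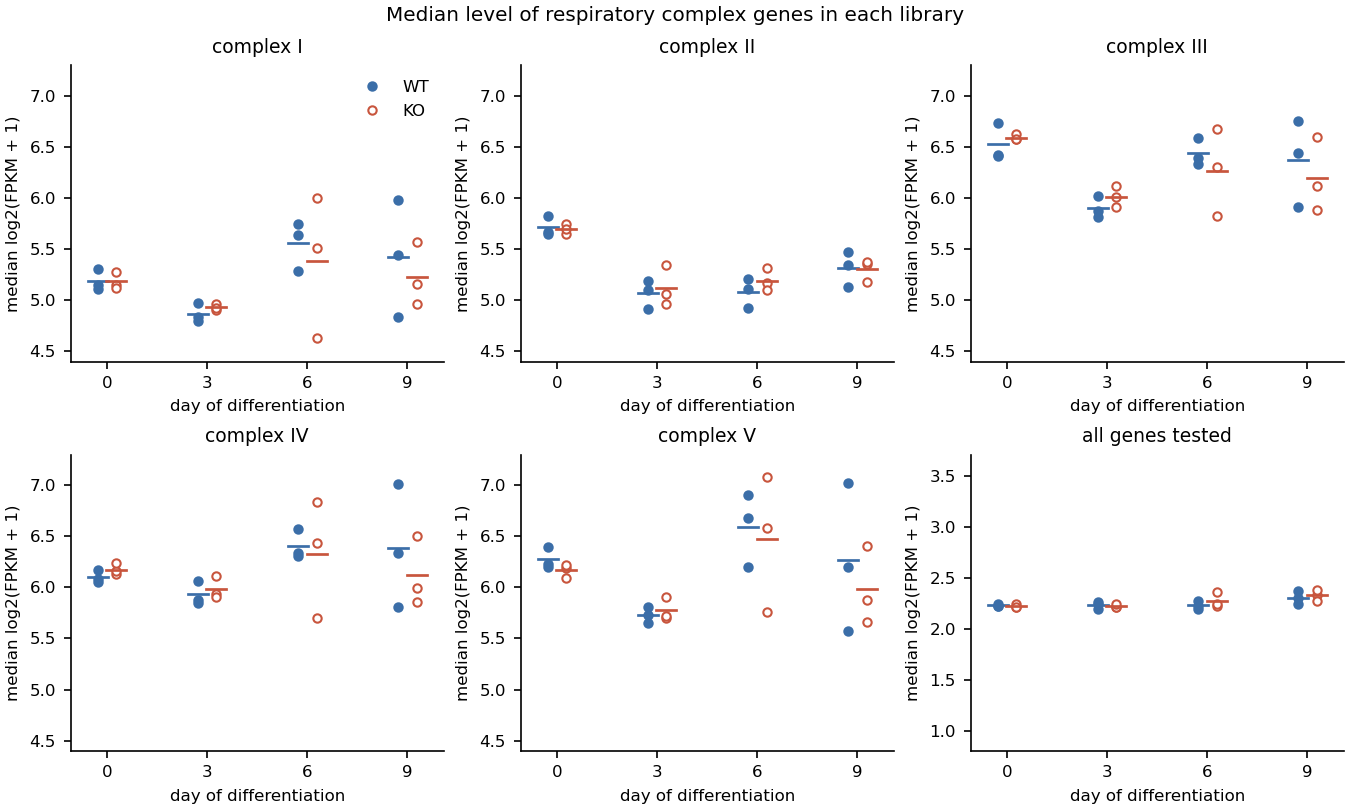
Median log2(FPKM + 1) of the tested members of each complex and of all genes tested (y axis) by day of differentiation (x axis), with 1 point per library, filled for WT and open for KO, and a bar at the group mean. Complex II stayed below its day 0 level at every later day, and the spread between libraries of complexes I, IV and V was wider on days 6 and 9 than on day 0, while the median of all genes was at most 2.38 in every library.

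All 5 complexes stood lower on day 3 than on day 0, and the complex II medians stayed below those of its day 0 libraries at every later time in both genotypes. In WT cells complex II stood 2.83 ± 0.16 above the median of all genes on day 3, 2.85 ± 0.16 on day 6 and 3.01 ± 0.24 on day 9. Complex V in WT cells stood at 3.50 ± 0.11 on day 3, 4.36 ± 0.38 on day 6 and 3.96 ± 0.79 on day 9. Its SD on day 9 was thus several times that of day 0. Counted gene by gene over the 78 tested members, the lowest of the 4 daily means fell on day 3 for 60 members in WT and 56 in KO cells, and the highest on day 6 for 36 and 44 members and on day 0 for 28 and 29.

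The most abundant member of each complex, by its mean over all libraries, was Ndufa4 for the genes placed in complex I, Sdhd (a membrane anchor of succinate dehydrogenase), Uqcr10 (a small complex III subunit), Cox8a (a small complex IV subunit) and Atp5b (the catalytic beta subunit of the ATP synthase). On day 0 Atp5b stood at 583, 505 and 472 FPKM in the WT and 517, 524 and 552 FPKM in the KO libraries. Cox8a stood at 444, 343 and 325 FPKM in WT and 367, 369 and 371 FPKM in KO libraries. Uqcr10 stood at 220.1, 183 and 178 FPKM in WT and 217, 212 and 210.5 FPKM in KO libraries. These levels overlapped between genotypes for each of the 3 genes. Sdhd stood at 105, 109 and 102 FPKM in WT and 95.8, 93.8 and 106 FPKM in KO libraries on day 0. Ndufa4 stood at 71.7, 97.9 and 93.5 FPKM in WT and 93.1, 95.2 and 104 FPKM in KO libraries, again with overlap.

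Leaving the stem cell state was accompanied by lower levels of members of every complex. In WT cells 16 of the 78 tested members fell between day 0 and day 3 and none rose, where limma called 25.9% of all genes tested and called 14.5% of them lower. The 16 called members are 20.5% of those tested, all of them lower. The median member difference was -0.44 on the log2 scale, against -0.01 for all genes, and 72 of 78 members were below 0. The 3 day 3 libraries all lay below the 3 day 0 libraries for 47 of 78 members, a pattern found in 24% of all genes tested.

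Ndufb4, a small membrane-arm subunit of complex I, changed most. It stood at 54.5, 50.2 and 49.9 FPKM on day 0 and 15.7, 24.96 and 16.8 FPKM on day 3 in WT cells (log2 difference -1.41, SE 0.25, adjusted p = 1.84e-04). All day 3 values were below all day 0 values. Uqcrc1, a core protein of complex III, went from 137, 86.03 and 87.99 FPKM to 36.3, 62.2 and 37.6 FPKM (log2 difference -1.19, SE 0.35, adjusted p = 0.0153). Cox7a1, the heart and muscle form of a complex IV subunit, went from 13.5, 9.52 and 12.7 FPKM to 6.12, 4.25 and 4.34 FPKM (log2 difference -1.13, SE 0.39, adjusted p = 0.0354). Neither gene's groups overlapped. Atp5g1, one of the genes for the c subunit of the ATP synthase rotor, went from 65.2, 42.5 and 43.8 FPKM to 19.6, 33.2 and 18.8 FPKM (log2 difference -1.07, SE 0.39, adjusted p = 0.0461). Cox5a, a complex IV subunit on the matrix side, went from 66.4, 70.6 and 65.6 FPKM to 34.2, 35.4 and 34.5 FPKM (log2 difference -0.94, SE 0.22, adjusted p = 0.00287), with the tightest replicates of the 5 genes on day 3. Some of these calls were lost without 1 library: that of Atp5g1 without any of the 6 but WT day 3 replicate 2 (adjusted p between 0.0633 and 0.181 by limma), that of Cox7a1 without replicate 1 or 3 of day 0 or replicate 2 or 3 of day 3 (between 0.0876 and 0.113), and that of Uqcrc1 without replicate 1 of day 0 or replicate 1 or 3 of day 3 (between 0.0668 and 0.0881). With the replicate number as a block within each day, the calls of Cox7a1 (adjusted p = 0.0708) and Atp5g1 (0.0659) were lost. After scaling to equal sums over all genes (TPM), those of Cox5a (adjusted p = 0.175 by limma), Cox7a1 (0.131) and Atp5g1 (0.0650) were lost.

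The other 11 members that fell on day 3 in WT cells were spread over the complexes. Among them were the NADH-binding subunits Ndufv1 and Ndufv2 of complex I, Sdha, Sdhb and Sdhc of complex II, the Rieske iron-sulfur protein Uqcrfs1 of complex III, Cox8a of complex IV, and the alpha, beta and gamma subunits of the ATP synthase head, Atp5a1, Atp5b and Atp5c1. Their log2 differences ran from -0.92 for Ndufv1 to -0.43 for Sdha. By complex, 4 of 37 tested members of complex I fell, 3 of 4 of complex II, 2 of 8 of complex III, 3 of 13 of complex IV and 4 of 16 of complex V. Uqcr10, at 111, 131 and 104 FPKM on day 3, did not pass the test (log2 difference -0.75, adjusted p = 0.141 by limma). Sdhd at 99.7, 109 and 89.2 FPKM and Ndufa4 at 79.8, 78.2 and 79.9 FPKM on day 3 overlapped their day 0 values and did not pass either.

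KO cells were compared with their own day 0 libraries. In KO cells 15 members fell and 1 rose, with 28.1% of all genes tested called and 16.2% called lower. The members' median difference was -0.42, and all 3 day 3 libraries lay below all 3 day 0 libraries for 54 of 78 members, against 30.1% of all genes. Of the 16 members lower in WT and the 15 lower in KO cells, 14 were shared, 87.5% and 93.3% of each list. How large the shared part was among all genes called lower is not given here. Cox7a1 changed most, from 12.5, 17.4 and 14.6 FPKM to 5.39, 2.88 and 3.15 FPKM (log2 difference -1.75, SE 0.39, adjusted p = 0.00170). Ndufb4 went from 45.7, 51.7 and 51.6 FPKM to 23.4, 19.3 and 17.2 FPKM (log2 difference -1.28, SE 0.25, adjusted p = 4.78e-04). Both genes' day 3 libraries lay below all day 0 libraries. Uqcrc1 went from 92.5, 97.95 and 93.4 FPKM to 33.4, 48.03 and 38.96 FPKM (log2 difference -1.23, SE 0.35, adjusted p = 0.0113). Atp5g1 went from 50.3, 49.5 and 48.04 FPKM to 22.3, 26.05 and 21.4 FPKM (log2 difference -1.06, SE 0.39, adjusted p = 0.0460). The call of Atp5g1 in KO cells was lost without any 1 of the 6 libraries (adjusted p between 0.0641 and 0.125 by limma) and with the replicate block (0.138), and that of Uqcrc1 was lost with the block (0.0753). Sdhc, a membrane anchor of complex II, went from 45.7, 45.6 and 45.3 FPKM to 22.3, 23.5 and 21.2 FPKM (log2 difference -0.997, SE 0.20, adjusted p = 7.89e-04). Under TPM the KO day 3 calls of Sdhc (adjusted p = 0.195 by limma), Atp5g1 (0.104) and Ndufb4 (0.0700) were lost.

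Cox7a2l was the member that rose on day 3 in KO cells. It stood at 68.8, 73.99 and 75.4 FPKM on day 0 and 117, 97.3 and 106 FPKM on day 3 (log2 difference 0.54, SE 0.19, adjusted p = 0.0354), and all day 3 values were above all day 0 values. The call was lost with the replicate block (adjusted p = 0.105 by limma), after scaling to equal sums over all genes (TPM, 0.318) and without any of the 6 libraries but KO day 3 replicate 2 (between 0.0659 and 0.123). In WT cells it went from 73.9, 73.7 and 68.9 FPKM to 93.2, 110.3 and 104 FPKM without passing the test (log2 difference 0.50, adjusted p = 0.0559 by limma), again without overlap.

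The counts of day 3 depended on how the spread was estimated. Same-numbered WT and KO libraries of day 3 deviated together, and with the replicate number as a block within each day 7 members fell in WT and 3 in KO cells. With a fit to the groups compared alone, 31 fell and 1 rose in WT, and 46 fell and 1 rose in KO cells. Under TPM, 2 fell in each genotype. The share of all genes called under each of these settings is not given.

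By day 6 the members had split, with some members above day 0 and others, the alpha and beta subunits of the ATP synthase among them, below it. In WT cells 9 of the 78 tested members rose and 11 fell, against 47.8% of all genes tested called, 22.5% higher and 25.2% lower, and the 20 called members are 25.6% of those tested. The members' median difference was 0.24, against -0.01 for all genes. Ndufa2, a small accessory subunit of complex I, rose most. It stood at 35.8, 38.4 and 38.2 FPKM on day 0 and 135, 82.3 and 251 FPKM on day 6 (log2 difference 1.88, SE 0.50, adjusted p = 0.00412). Atp5e, the epsilon subunit of the ATP synthase head, went from 37.1, 29.9 and 30.8 FPKM to 85.4, 47.4 and 156 FPKM (log2 difference 1.38, SE 0.50, adjusted p = 0.0283). Ndufb7, an accessory subunit of complex I, went from 12.9, 10.5 and 11.8 FPKM to 32.9, 19.3 and 50.7 FPKM (log2 difference 1.37, SE 0.44, adjusted p = 0.0139). In each of these genes the day 6 libraries ranked replicate 3 highest and replicate 2 lowest, and none overlapped day 0. Atp5k, a small membrane subunit of the ATP synthase, went from 38.96, 41.3 and 44.6 FPKM to 97.7, 59.6 and 153 FPKM (log2 difference 1.19, SE 0.46, adjusted p = 0.0383). Cox6b1, the common form of a complex IV subunit, went from 197, 168 and 169 FPKM to 359, 239 and 402 FPKM (log2 difference 0.87, SE 0.34, adjusted p = 0.0431). Without WT day 6 replicate 3, the library with the largest rRNA-type share, the calls of Atp5e, Ndufb7, Atp5k and Cox6b1 were lost (adjusted p between 0.0809 and 0.174 by limma), and 3 members rose and 11 fell. Atp5e was lost in 4 of the 6 fits that left out 1 library, and Atp5k and Cox6b1 in 5 of 6 each. Without replicate 1 of that group 3 rose and 11 fell as well, and without replicate 2 14 rose and 11 fell.

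The members that fell in WT cells on day 6 included 3 of the 4 subunits of complex II. Atp5b stood at 239, 215 and 278 FPKM on day 6 (log2 difference -1.09, SE 0.17, adjusted p = 2.17e-05). Its day 6 values all lay below the day 0 values given above. Ndufs1, the largest iron-sulfur subunit of complex I, went from 7.67, 10.3 and 11.8 FPKM to 3.91, 6.24 and 2.297 FPKM (log2 difference -1.14, SE 0.27, adjusted p = 0.00177). Sdha, the flavoprotein of succinate dehydrogenase, went from 42.1, 51.4 and 51.2 FPKM to 24.9, 29.97 and 20.5 FPKM (log2 difference -0.92, SE 0.16, adjusted p = 6.47e-05). Sdhc went from 49.5, 42.4 and 40.8 FPKM to 26.4, 24.9 and 23.99 FPKM (log2 difference -0.79, SE 0.20, adjusted p = 0.00313). Sdhd stood at 54.5, 76.8 and 55.1 FPKM on day 6 (log2 difference -0.77, SE 0.17, adjusted p = 0.00104). Atp5a1, Atp5f1, Cox5a, Uqcrfs1 and Uqcrc2 fell as well, by between 0.51 and 0.99 on the log2 scale. The called members differed in gene length: the median exon length was 1108 bases for the 9 that rose and 3135 bases for the 11 that fell, against 1631 bases for all 78. Beside this, 390 other protein-coding genes of at most 1000 exon bases had a median difference of 0.18 on day 6, and the part of transcript length in the split was not tested.

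In KO cells on day 6 more members were below day 0 by the test than above it. Of the 78 members 3 rose and 11 fell, with 43.7% of all genes tested called, 21.4% higher and 22.3% lower. Atp5a1, the alpha subunit of the ATP synthase head, went from 461, 463 and 493 FPKM on day 0 to 247, 233 and 211 FPKM on day 6 (log2 difference -1.04, SE 0.16, adjusted p = 2.56e-05). Atp5b stood at 258, 265 and 265 FPKM on day 6 (log2 difference -1.01, SE 0.17, adjusted p = 5.20e-05). Cox5a went from 68.8, 70.3 and 73.4 FPKM to 41.2, 39.3 and 29.5 FPKM (log2 difference -0.95, SE 0.22, adjusted p = 0.00146). All 3 genes' day 6 libraries lay below day 0. Ndufa4l2, a hypoxia-inducible relative of Ndufa4, went from 2.28, 9.74 and 7.27 FPKM to 1.52, 0.445 and 0.363 FPKM (log2 difference -1.96, SE 0.66, adjusted p = 0.0206), with wide scatter on day 0. Cox7a1 stood at 9.14, 6.99 and 3.896 FPKM on day 6 (log2 difference -1.10, SE 0.39, adjusted p = 0.0257). Without KO day 6 replicate 3 neither passed: the difference was -1.80 for Ndufa4l2 (adjusted p = 0.0536 by limma) and -0.80 for Cox7a1 (0.115). Both were lost too without KO day 0 replicate 2 (0.0946 and 0.0865) or the unnumbered day 0 library (0.0676 and 0.0569), and Ndufa4l2 without KO day 6 replicate 2 (0.0634). Sdha, Sdhc, Ndufs1, Atp5c1 and Uqcrfs1 fell too. Of the 11 members lower in each genotype on day 6, 8 were shared, again without the shared part of all genes beside it. Cox7a2l rose to 131, 123 and 85.1 FPKM (log2 difference 0.61, SE 0.19, adjusted p = 0.0125), a call lost without KO day 6 replicate 1 (adjusted p = 0.0637) or replicate 2 (0.0582), and Atp5s and Ndufb2, both at low levels, rose as well.

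The day 6 KO count rested on 1 library. Ndufa2 stood at 210.1, 105 and 36.2 FPKM in the 3 KO day 6 libraries, and Atp5e at 116, 59.3 and 21.7 FPKM. In both genes replicate 3 lay below the 3 KO day 0 libraries while the other day 6 libraries stood above them. Without KO day 6 replicate 3, 21 members rose and 10 fell in KO cells, and 11 of the 14 members first called were still among them. The share of all genes called in that fit is not given here. That library had an rRNA-type share of 6.10%, the lowest member share of reads (0.836%) and the KO group's highest Atf3 level. The part of any of these in its low member levels was not tested.

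**Figure D2:**
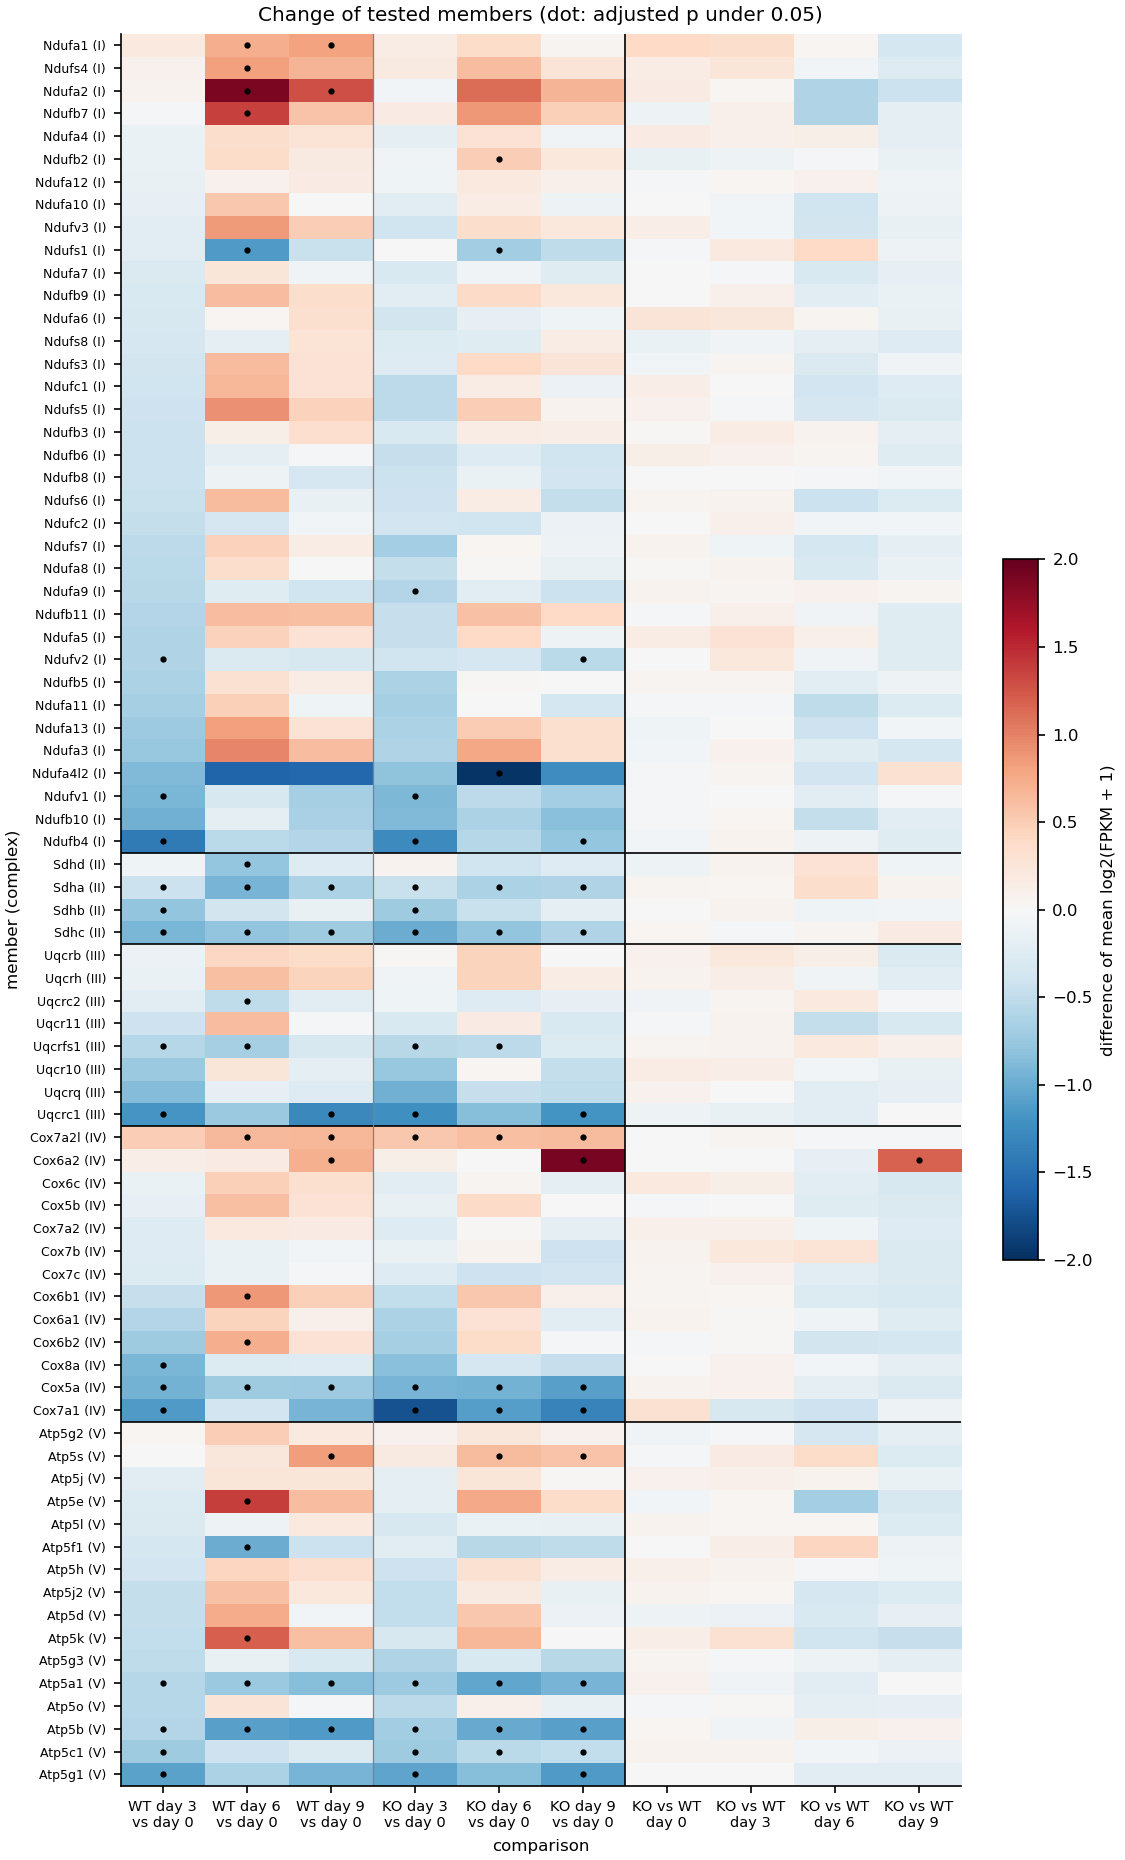
Difference of group means on the log2(FPKM + 1) scale (colour, from -2 to 2) for 77 of the 78 tested members, ordered by complex, in the 6 comparisons with day 0 and the 4 comparisons of KO with WT. A dot marks an adjusted p under 0.05: the day 3 columns are mostly blue, days 6 and 9 mix red and blue, and the KO against WT columns hold 1 dot, at Cox6a2 on day 9.

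On day 9 Uqcrc1, Atp5a1, Atp5b, Cox5a, Sdha and Sdhc were below day 0 in both genotypes. In WT cells 5 members rose and 7 fell, with 46% of all genes tested called, 22.2% higher and 23.8% lower. The median member difference was 0.05. In KO cells 3 rose and 11 fell, with 45.1% of all genes called, 22.4% higher and 22.7% lower, and a median member difference of -0.14. The called members are 15.4% of those tested in WT and 17.9% in KO cells. Each genotype's 3 comparisons share its day 0 libraries and are not independent of each other. The day 9 libraries also had lower rRNA-type shares than those of day 0 in both genotypes, as given below.

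Uqcrc1 stood at 24.3, 47.5 and 58.5 FPKM in WT cells on day 9 (log2 difference -1.29, SE 0.35, adjusted p = 0.00451). In KO cells it stood at 38.3, 51.04 and 34.6 FPKM (log2 difference -1.19, SE 0.35, adjusted p = 0.00797). It lay below its day 0 libraries in both courses. Atp5b stood at 196, 259 and 258 FPKM in WT cells (log2 difference -1.13, SE 0.17, adjusted p = 1.17e-05). In KO cells Atp5b stood at 283, 257 and 215 FPKM (log2 difference -1.08, SE 0.17, adjusted p = 2.04e-05). The catalytic subunit gene was thus at a little under 50% of its day 0 mean in each genotype, from 519.8 ± 56.9 to 238 ± 36.3 FPKM in WT and from 531 ± 19.1 to 252 ± 34.2 FPKM in KO cells (mean ± SD, n = 3). Under TPM the day 9 differences of Atp5b were -0.13 in WT (adjusted p = 0.789 by limma) and -0.18 in KO cells (0.717), and those of Uqcrc1 were -0.30 (0.391) and -0.31 (0.398), so these falls did not pass on that scale. In KO cells those of Cox5a (-0.21), Cox7a1 (-0.56) and Atp5g1 (-0.27) did not pass under TPM either. Atp5a1 went from 493, 435 and 413 FPKM on day 0 to 203, 271 and 268 FPKM on day 9 in WT cells (log2 difference -0.86, SE 0.16, adjusted p = 1.81e-04). Cox5a stood at 26.1, 41.3 and 60.8 FPKM in WT cells (log2 difference -0.73, SE 0.22, adjusted p = 0.00966). Its 3 WT libraries were far apart on day 9. In KO cells Cox5a stood at 32.6, 42.3 and 25.5 FPKM (log2 difference -1.09, SE 0.22, adjusted p = 3.48e-04). Cox7a1 stood at 4.12, 9.04 and 3.73 FPKM in KO cells (log2 difference -1.33, SE 0.39, adjusted p = 0.00738) and Atp5g1 at 19.6, 30.2 and 17.5 FPKM (log2 difference -1.14, SE 0.39, adjusted p = 0.0202). The Atp5g1 call was lost without KO day 0 replicate 1 (adjusted p = 0.0512), KO day 9 replicate 1 (0.0605) or KO day 9 replicate 3 (0.0828). Sdhc stood at 18.5, 31.3 and 32.3 FPKM in WT cells (log2 difference -0.71, SE 0.20, adjusted p = 0.00662), and its fall no longer passed without WT day 9 replicate 1 (adjusted p = 0.0581 by limma). The Cox5a call in WT cells was lost without that library too (adjusted p = 0.0863).

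Among the members that rose by day 9, Ndufa2 stood at 47.2, 90.1 and 186 FPKM in WT cells (log2 difference 1.28, SE 0.50, adjusted p = 0.0410). That call was lost in 5 of the 6 fits that left out 1 WT library of day 0 or day 9, and without WT day 9 replicate 3 the difference was 0.79 with an adjusted p of 0.236 by limma. Cox7a2l stood at 90.8, 116 and 146 FPKM in WT cells (log2 difference 0.67, SE 0.19, adjusted p = 0.00574). In KO cells it stood at 111, 131 and 98.03 FPKM (log2 difference 0.63, SE 0.19, adjusted p = 0.00949), a call lost without KO day 9 replicate 2 (adjusted p = 0.0534). It lay above day 0 in every later library of both genotypes. Atp5s, at a mean of 2.204 ± 0.172 FPKM on day 9 against 0.812 ± 0.216 FPKM on day 0 in WT cells, also rose in both courses, as did Cox6a2, described below with the tissue isoforms.

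Members that fell in all 6 comparisons with day 0 numbered 5: Atp5a1 (chr18:77773729-77782869), Atp5b (chr10:128083273-128090391), Cox5a (chr9:57521274-57532426), Sdha (chr13:74322254-74350280) and Sdhc (chr1:171127165-171150603), in mm10 coordinates. The share of all genes tested that fell in all 6 is not given here, so the number is not read as a trait of the members. These 5 genes encode the alpha and beta subunits of the ATP synthase head, a complex IV subunit, and the flavoprotein and an anchor of succinate dehydrogenase. Under TPM scaling, where the median of all genes moved by 0.78 (WT) and 0.70 (KO) on day 9, 4 of these differences turned positive in WT cells on day 9 (Atp5a1 0.15, Cox5a 0.26, Sdha 0.35 and Sdhc 0.27) and Sdha (0.28) and Sdhc (0.29) in KO cells. All of them lay below the median of all genes on that scale. On day 6 under TPM, Atp5a1, Atp5b, Cox5a and Cox7a1 in KO cells (differences between -0.71 and -0.49) and Ndufs1, Sdha, Sdhc and Sdhd in WT cells (between -1.13 and -0.87) were below day 0 without passing the test. The rRNA-type genes held between 26.9% and 79.3% of the summed FPKM of a library, and TPM divides by that sum. With equal sums outside the rRNA-type and mitochondrial genome genes, and after scaling to longer protein-coding genes, the 5 genes were below day 0 in all 6 comparisons. Cox7a2l (chr17:83501918-83517330) rose in 5 of the 6 comparisons and was above day 0 in all 6 under every scaling tried.

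**Figure D3:**
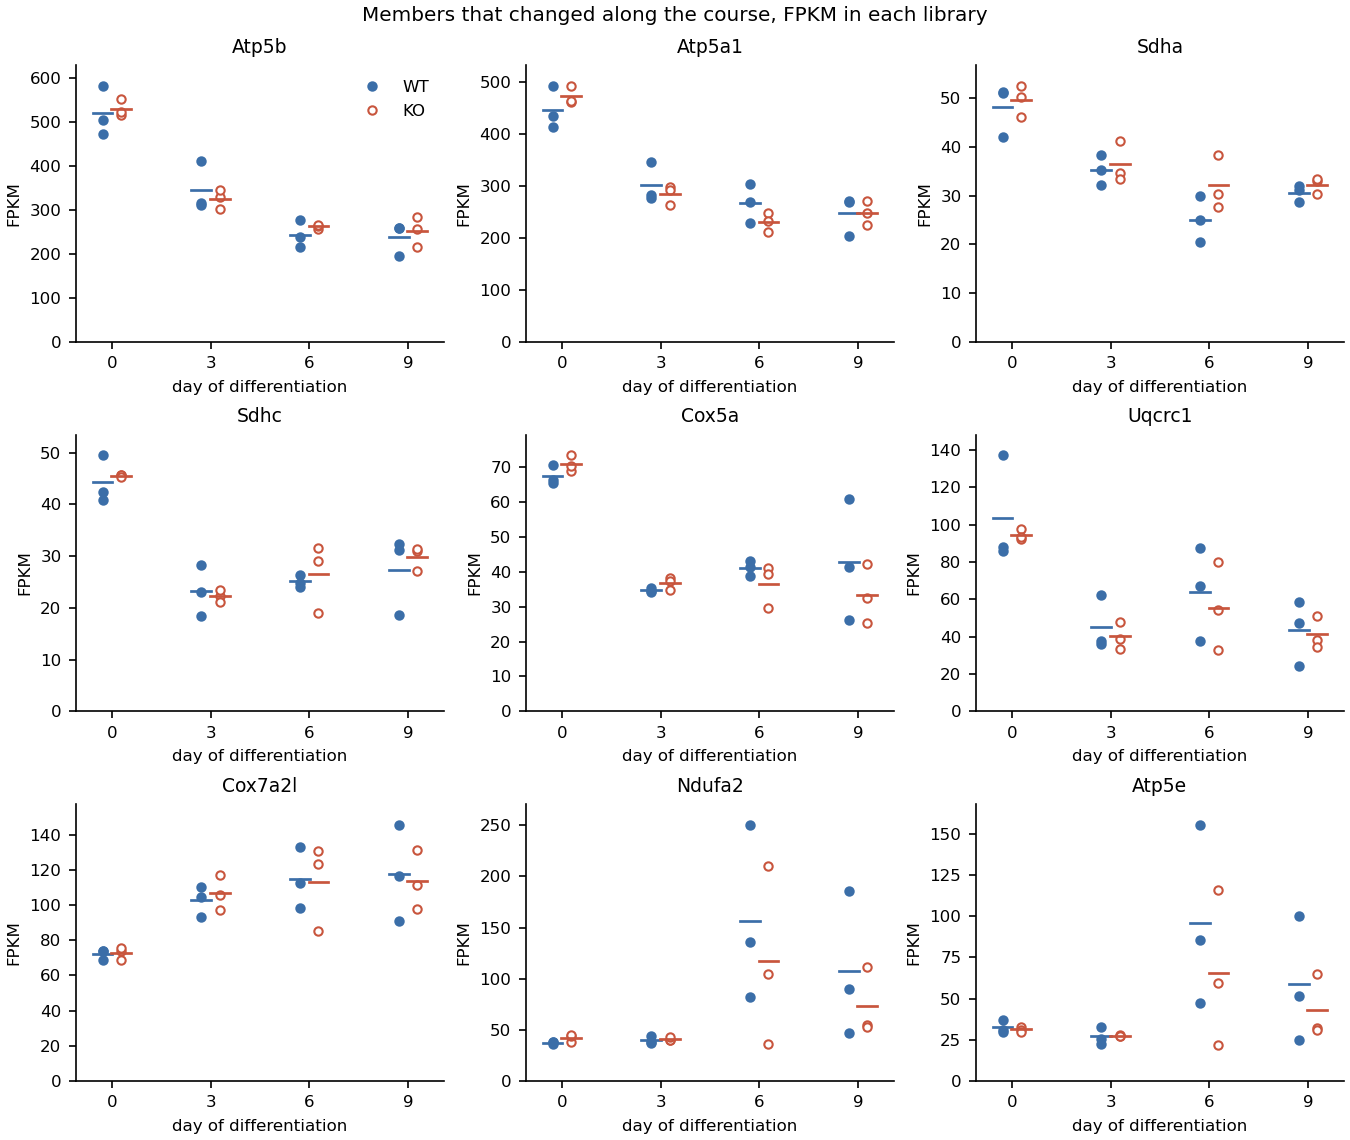
FPKM (y axis) of 9 members in each library by day of differentiation (x axis), filled points for WT and open points for KO, with a bar at the group mean. Atp5b, Atp5a1, Sdha, Sdhc, Cox5a and Uqcrc1 lie lower on the later days, Cox7a2l lies higher, and Ndufa2 and Atp5e spread widely on days 6 and 9 with KO day 6 replicate 3 near the day 0 level.

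The split of calls between higher and lower changed with the scaling after day 3. These counts are given without the share of all genes called in the same fit. Under TPM the median of all genes moved on day 9 as well, as given above. In WT cells on day 6 the 9 higher and 11 lower became 4 and 2 under TPM, 7 and 23 with equal sums, and 18 and 13 after scaling to longer genes. In WT cells on day 9 the 5 higher and 7 lower became 49 and 0 under TPM, 11 and 10 with equal sums, and 15 and 6 after scaling to longer genes. In KO cells on day 6 the 3 higher and 11 lower became 17 and 0 under TPM, 2 and 23 with equal sums, and 8 and 14 after scaling to longer genes. In KO cells on day 9 the 3 higher and 11 lower became 31 and 0 under TPM and 5 and 8 after scaling to longer genes. Set against the median of all genes on the same scale, the members' median lay 0.25 higher in WT cells on day 6 as deposited and 0.19 higher under TPM, and on day 9 it lay 0.05 and 0.21 higher.

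Succinate dehydrogenase is the only respiratory complex made from nuclear genes alone. Sdhb, the iron-sulfur subunit, went in WT cells from 62.9, 48.2 and 47.4 FPKM on day 0 to 29.03, 38.8 and 23.9 FPKM on day 3 (log2 difference -0.78, SE 0.23, adjusted p = 0.0136). On day 9 it stood at 36.3, 49.9 and 58.4 FPKM, which overlapped day 0 and did not pass (adjusted p = 0.641 by limma). Sdha and Sdhc were called lower on day 9 and Sdhb was not. Sdhd fell on day 6 in WT cells. In KO cells on day 6 it stood at 61.1, 79.7 and 85.99 FPKM (log2 difference -0.39, adjusted p = 0.0736 by limma). The difference between genotypes in the change from day 0 was called for no member of complex II.

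Loss of Atf3 left nearly every member uncalled. On day 0 none of the 78 members was called by limma between KO and WT (0 at an unadjusted p under 0.05), where 0.0132% of all genes were called. On day 3 none was called (0 at an unadjusted p under 0.05), again with 0.0132% of all genes. On day 6 none was called (1 at an unadjusted p under 0.05), against 0.726% of all genes. On day 9 1 of 78 was called, Cox6a2, against 0.963%. With voom on recovered reads, and with the replicate block, no member was called on any day. These counts are near the background, and members missing the threshold does not show that their levels were alike: the SE of a member's difference was 0.17 for Atp5b and 0.50 for Atp5e.

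The members at 5 FPKM or more with the largest differences on each day are given here, each with its SE. It comes from 1 fit over all groups and is the same for a gene on every day. The SE is therefore not the scatter of that day's libraries. For complex V in WT cells, set against the median of all genes, the SD between libraries was 0.11 on day 0 and 0.79 on day 9. On day 0 Ndufa1, a small accessory subunit of complex I, stood at 34.01, 32.3 and 38.8 FPKM in KO and 16.8, 34.6 and 30.6 FPKM in WT libraries (log2 difference 0.40, SE 0.29). Cox7a1 on day 0 had a difference of 0.30 (SE 0.39). On day 3 Atp5k stood at 34.3, 35.9 and 39.6 FPKM in KO and 26.2, 30.3 and 31.4 FPKM in WT libraries (0.31, SE 0.46), without overlap. Ndufa1 again had the largest difference on day 3 (0.35, SE 0.29). On day 6 the largest differences were those of Atp5e (-0.68, SE 0.50) and Ndufb7 (-0.60, SE 0.44), with overlapping libraries. On day 9, beside Cox6a2, they were those of Atp5k (-0.45, SE 0.46) and Ndufa2 (-0.43, SE 0.50), with overlap as well.

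The most abundant members did not differ past the threshold between genotypes on any day. For Atp5b the log2 differences of KO from WT were 0.04, -0.08, 0.11 and 0.09 on days 0, 3, 6 and 9, each with an SE of 0.17. For Cox8a they were 0.01, 0.09, -0.05 and -0.20 (SE 0.32). For Uqcr10 they were 0.14, 0.13, -0.05 and -0.16 (SE 0.36). For Sdhd they were -0.10, 0.07, 0.28 and -0.09 (SE 0.17), and for Ndufa4 0.16, 0.10, 0.11 and -0.19 (SE 0.26).

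Whether the members as a group lay lower or higher in KO than in WT cells on days 6 and 9 turned on single libraries. The median member difference was 0.02 on day 0, 0.05 on day 3, -0.13 on day 6 and -0.18 on day 9, with 57 of 78 members below 0 on day 6 and 69 of 78 on day 9. The median of all genes was 0.02 and 0.01 on those days. Other short protein-coding genes had medians of -0.14 on day 6 and -0.14 on day 9, close to those of the members. Without KO day 6 replicate 3 the day 6 median was 0.17, with 10 of 78 members below 0, and without WT day 9 replicate 3 the day 9 median was 0.08, with 17 of 78 below 0. Without any other library of these groups the median was between -0.40 and -0.05 on day 6 and between -0.47 and -0.05 on day 9. On day 3 it was -0.01 without KO day 3 replicate 1. Leaving out KO day 6 replicate 3 or WT day 9 replicate 1 called no further member in these comparisons. Under TPM the members' median on day 6 was 0.55, and the median of all genes was 0.55. Erythroid markers differed on day 6: 6 of 8 tested were higher in KO cells, where 0.231% of all genes were called higher, and their summed level was 2515, 2847 and 177 FPKM in the KO and 106, 26.5 and 36.9 FPKM in the WT libraries. KO day 6 replicate 3 was thus low in these markers as in the members, and their part in the day 6 values was not tested.

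Cox6a2 was the only member called between the genotypes, and it is one of a pair of tissue isoforms. Cox6a2 (chr7:128205435-128206387, mm10, minus strand) encodes the heart and skeletal muscle form of a complex IV subunit whose common form is Cox6a1. Cox6a2 was listed at 0 in all 6 day 0 libraries and stood at 0.505, 0.294 and 1.29 FPKM in the WT and 2.91, 3.798 and 1.79 FPKM in the KO libraries on day 9. Every KO library was above every WT library (2.83 ± 1.004 against 0.695 ± 0.523 FPKM, mean ± SD, n = 3; log2 difference 1.19, SE 0.19, adjusted p = 0.00181 by limma). These values rest on 44, 47 and 33 recovered reads in the KO and 12, 4 and 13 in the WT libraries. The gene was at 1 FPKM or more in 4 libraries, the 3 KO and 1 of the WT libraries of day 9. It was therefore tested only because of the group where it was high, and the call is to be read with that limit. The call was lost with a pseudocount of 0.1 (adjusted p = 0.286 by limma), with voom on the reads (0.0663) and in a fit to the 6 day 9 libraries alone (0.384). It was kept when any 1 of these 6 libraries was left out, with adjusted p between 0.000243 and 0.0187. Those fits still took the spread from all groups, and the gene was at 0 in every library of WT day 0, KO day 0 and KO day 6. They therefore cannot show that the call stands on the scatter of day 9. With a filter of 5 FPKM the gene was not tested. The change from day 0 differed between genotypes over the 3 later days taken jointly (adjusted p = 0.0427 by limma's F test), the one member of 78 called, with 0.594% of all genes called. That joint call was lost in 19 of the 24 fits that left out 1 library (adjusted p between 0.0522 and 0.193), with the replicate block (0.550), with a pseudocount of 0.1 (0.855) and with voom.

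On day 9 heart muscle markers were higher in KO than in WT cells, as Cox6a2 was. Of 23 markers 20 were tested, and 14 were higher in KO than in WT cells on day 9, with all 20 differences above 0 and a median of 1.56, where 0.468% of all genes were called higher and 0.495% lower. Their summed level was 891, 1212 and 414 FPKM in the KO and 129, 160 and 217 FPKM in the WT libraries on day 9. Myl7, the atrial myosin light chain, stood at 276, 555 and 145 FPKM in KO and 32.9, 47.8 and 77.1 FPKM in WT libraries. Among 4 tested skeletal muscle markers none was called. Markers of other cell types differed as well. Of 11 tested endothelial markers 4 were higher (median 0.73), with sums of 53.4, 54.0 and 43.2 FPKM in the KO and 28.2, 29.0 and 28.1 FPKM in the WT libraries. Of 8 tested trophoblast markers 3 were lower (median -0.77), with sums of 386, 607 and 552 FPKM in the KO and 634, 790 and 1005 FPKM in the WT libraries. Of 8 tested smooth muscle markers 1 was higher (median 0.32), and of 9 tested visceral endoderm markers none was called (median -1.09). The order of the 3 KO libraries was the same for Cox6a2 and for the summed heart markers, with replicate 2 highest and replicate 3 lowest. In the WT libraries replicate 3 was highest for both, but Cox6a2 was lowest in replicate 2 and the heart markers in replicate 1. In KO cells on day 6 they differed. There 9 of the 20 tested heart markers were above day 0 by the test, against 21.4% of all genes, while Cox6a2 was at 0. The part of the cells that carry these markers in the Cox6a2 difference was not tested.

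**Figure D4:**
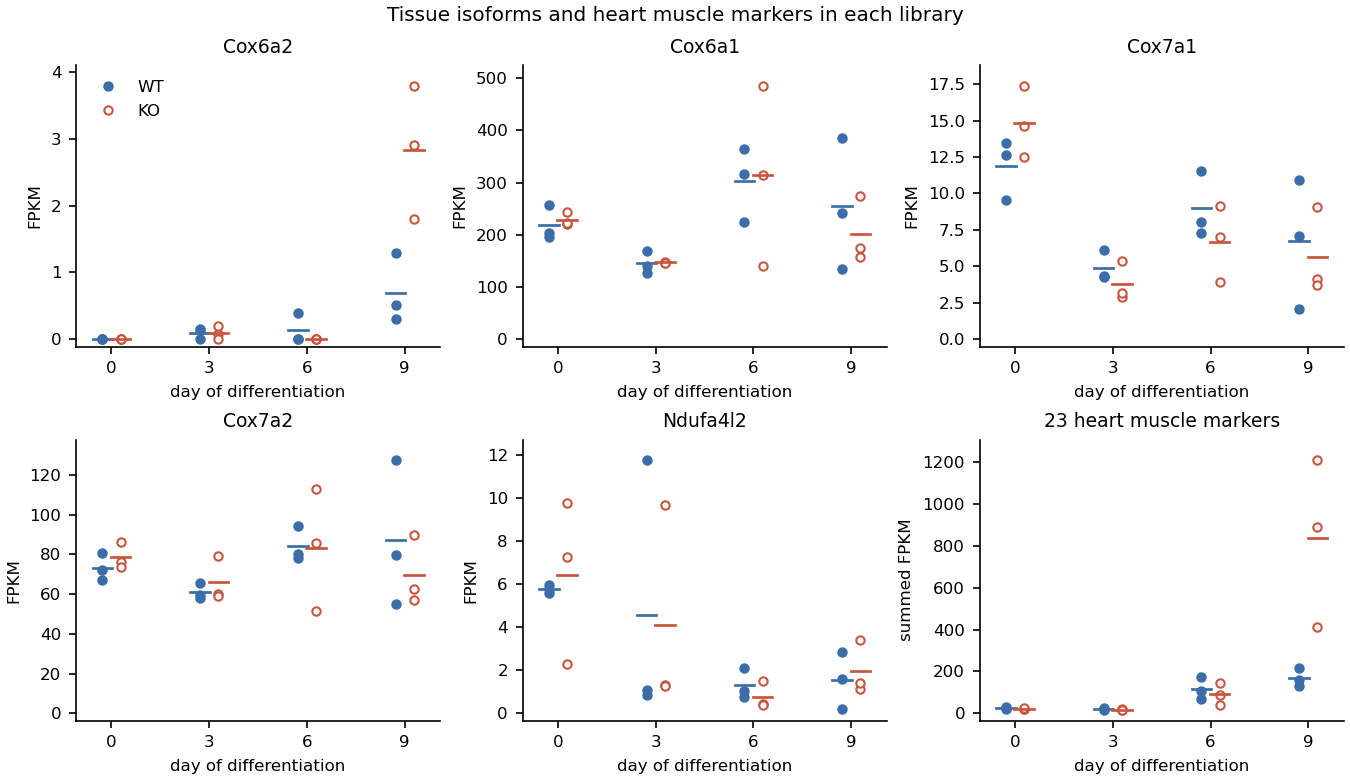
FPKM (y axis) of 5 tissue-isoform members and the summed FPKM of 23 heart muscle markers in each library by day of differentiation (x axis), filled points for WT and open points for KO, with a bar at the group mean. Cox6a2 and the heart markers are high in the 3 KO libraries of day 9, while Cox6a1 and Cox7a2 are abundant at every day.

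In every library the common isoforms Cox6a1, Cox6b1, Cox7a2 and Cox7b stood above their tissue forms. Cox6a1, the common form, stood at 134, 242 and 386 FPKM in WT and 175, 274 and 158 FPKM in KO libraries on day 9, so Cox6a2 stayed a small part of the pair even where it was highest. Cox7a2, the common partner of Cox7a1, stood at 66.9, 80.9 and 72.2 FPKM on day 0 and 54.9, 79.5 and 128 FPKM on day 9 in WT libraries. Cox7a1 fell during the course in KO cells, unlike Cox6a2, although both are known as heart and muscle forms. Cox6b2, known as the testis form of Cox6b1, went in WT cells from 13.03, 11.7 and 9.86 FPKM on day 0 to 19.5, 12.9 and 29.4 FPKM on day 6 (log2 difference 0.72, SE 0.29, adjusted p = 0.0465), with overlap. Cox7b stood at 38.9, 66.9 and 61.1 FPKM on day 0 in WT libraries, and Cox8a was at 155.9 FPKM or more in every library, while their partners Cox7b2, Cox8b and Cox8c stayed under 1 FPKM. Of the genes for the c subunit, Atp5g1 fell on day 3. Atp5g2 stood at 124, 84.97 and 86.2 FPKM on day 0 and 91.4, 125 and 86.7 FPKM on day 3 in WT libraries, with overlap and no call. Atp5g3 went from 139, 117 and 121 FPKM to 83.2, 101 and 81.2 FPKM, also without a call (adjusted p = 0.118 by limma). Ndufa4l2 varied widely between libraries of a group, at 11.8, 0.866 and 1.06 FPKM in WT and 9.66, 1.29 and 1.27 FPKM in KO libraries on day 3, with replicate 1 high in both.

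The respiratory chain genes outside the naming rule moved with the members in part. Cyc1, the cytochrome of complex III, went in WT cells from 260.3, 183 and 183 FPKM on day 0 to 58.3, 116 and 147 FPKM on day 9 (log2 difference -1.04, SE 0.31, adjusted p = 0.00853). Atpif1, the inhibitor of ATP synthase reversal, rose in WT cells to 164, 117 and 183 FPKM on day 6 from 46.1, 54.4 and 52.6 FPKM (log2 difference 1.56, SE 0.34, adjusted p = 8.90e-04). Cox4i2, the hypoxia-linked form of Cox4i1, went from 1.603, 1.29 and 3.04 FPKM to 17.1, 6.91 and 19.8 FPKM on day 6 (log2 difference 2.32, SE 0.48, adjusted p = 5.23e-04), while Cox4i1 went from 265, 206 and 229 FPKM to 320.4, 183 and 329 FPKM without a call (adjusted p = 0.643 by limma). The testis cytochrome Cyct fell to near 0 in WT cells on day 6 (-2.21, adjusted p = 6.81e-08 by limma).

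The 13 subunits encoded by the mitochondrial genome were summarised beside the nuclear ones. On day 3 their median difference in WT cells was -0.06 and 1 of 13 fell (mt-Nd6), and in KO cells it was 0.27, with 1 of 13 lower and none higher. On day 6 in WT cells 3 rose (mt-Nd4, mt-Nd2 and mt-Nd6), 23.1% of the 13 against the 22.5% of all genes called higher. The library with the highest sum, WT day 6 replicate 2 at 18878 FPKM, was also the WT day 6 library with the lowest member median (5.60 on the log2 scale). Between KO and WT cells none of the 13 was called on any day by limma, and all 13 differences were below 0 on day 9.

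Among enzymes that feed the chain, calls were mostly lower. Of 18 tested genes of pyruvate dehydrogenase and the citric acid cycle, 6 fell on day 3, 10 on day 6 and 10 on day 9 in WT cells and none rose, and in KO cells 10 fell on day 6 and 10 on day 9, with Idh2 higher on day 9. The 10 lower on day 6 are 55.6% of the list in each genotype, against 25.2% of all genes called lower in WT and 22.3% in KO cells, and the 6 lower on day 3 in WT cells are 33.3%, against 14.5%. On day 6 in WT cells the largest falls were those of Pdhb (-1.52), Idh3a (-1.41) and Dlat (-1.37). None of the 18 was called between KO and WT cells. Of 17 tested regulators of mitochondrial gene expression, 6 fell (35.3%) and 1 rose in WT cells on day 6, with Gabpa (-1.35), Tfb1m (-1.20) and Tfb2m (-1.05) the most changed. Nrf1, the factor for which the promoter letters are named, fell in WT cells on day 6 (log2 difference -0.78) and day 9 (-0.90) and in KO cells on day 6 (-0.60) and day 9 (-0.69). Of 45 tested assembly factors, 13 fell (28.9%, near the 25.2% of all genes) and 3 rose (6.67%, against 22.5%) in WT cells on day 6, with Atpaf1 (-1.51), which loads the beta subunit Atp5b, the most lowered. Of 7 tested carriers and channels of mitochondria, 4 fell and 1 rose in WT cells on day 6, against 25.2% and 22.5% of all genes. Slc25a5 (-1.64) and the channel gene Vdac1 (-0.97) were the most lowered, and Slc25a4, the heart and muscle nucleotide carrier, rose (0.74).

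In part of the groups member levels moved with the rRNA-type share of the libraries. In the WT day 9 group replicates 1, 2 and 3 had rRNA-type shares of 4.42%, 9.78% and 14.9% and member medians of 5.21, 5.69 and 6.16 on the log2 scale. In the KO day 6 group replicates 1, 2 and 3 had shares of 18.6%, 11.6% and 6.10% and member medians of 6.17, 5.83 and 5.07. The library with the lowest share had the lowest member median in 5 of 8 groups, and the one with the highest share had the highest in 5 of 8. For 390 other short protein-coding genes the same held in 5 and 6 of 8 groups, so a like pattern was seen in short genes outside the pathway. With the mean level of those short genes as a covariate, 16 members rose and 27 fell in WT cells on day 6, and 15 rose and 25 fell in KO cells. That fit, too, is given without the share of all genes called. Between days the share differed too. It ran from 25.7% to 32.8% on day 0 and from 4.42% to 14.9% on day 9 in WT cells. In KO cells it ran from 27.0% to 28.7% on day 0, 6.10% to 18.6% on day 6 and 4.92% to 11.5% on day 9. These comparisons with day 0 thus also compare libraries whose shares did not overlap. The part of library preparation in the member levels was not tested beyond these values.

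**Figure D5:**
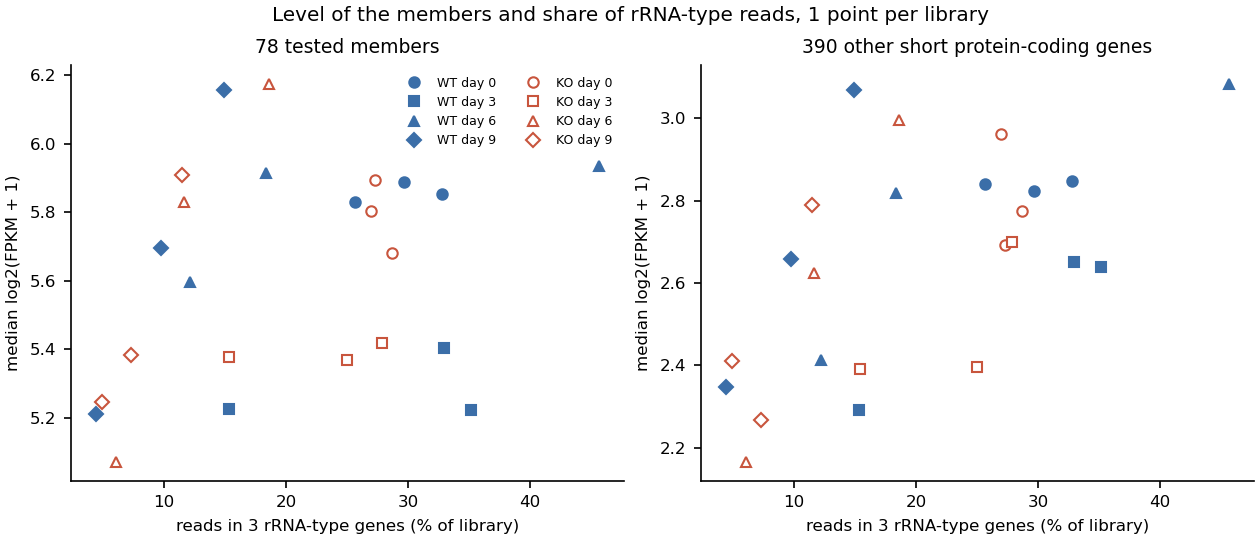
Median log2(FPKM + 1) of the 78 tested members (left) and of 390 other short protein-coding genes (right), on the y axes, against the percentage of a library's reads in 3 rRNA-type genes (x axis), with 1 point per library. Within the WT day 9 and KO day 6 groups the points climb with the rRNA-type share, from 5.21 to 6.16 and from 5.07 to 6.17 for the members.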

How the data were processed

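Poly(A) RNA of mouse embryonic stem cells was measured in 24 libraries, 3 in each of 8 groups. Per the submitters' processing notes, the build was mm10 and the tools included HISAT2 2.2.1 and featureCounts 2.0.1. Trimmomatic 0.39, FastQC 0.11.9 and DESeq2 1.30.1 are listed there as well. The authors deposited FPKM values in 1 table of 53465 genes. 1 KO day 0 column could be tied to its group only and is called unnumbered. Multiplying FPKM by GENCODE vM21 exon length gave whole reads within 0.05 for between 95.5% and 96.9% of values of up to 50 reads, so counting precision could be judged from between 7855630 and 25274433 reads per library.

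The 15159 genes at 1 FPKM or more in at least 3 libraries were tested with limma 3.58.1 in R 4.3.3 on log2(FPKM + 1), with 1 fit over the 8 groups (16 residual degrees of freedom), a trended prior and Benjamini-Hochberg adjustment over all genes tested, at 0.05. A pseudocount of 1 understates changes of low genes. The fit was tested on simulated data for KO against WT on day 6 over 15159 genes: of 100 genes changed by 1 on the log2 scale 55 were recovered, and of 100 changed by 2, 94. The simulation gave each gene 1 SD in all groups and no scatter shared between genes. Its recovery may therefore differ from that in the real libraries of day 6.

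Genes were named by a rule: in each comparison up to 5 called members with the highest and 5 with the lowest difference, without overlap and with a mean of at least 5 FPKM in the higher group, or the 2 with the largest difference where none passed, together with the most abundant member of each complex, tissue isoforms and complex II subunits. Other genes named were chosen after their values were seen. The members and lists were chosen with earlier results of these data known.

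Same-numbered WT and KO libraries were checked for pairing by the correlation of their deviations from the group means. It was 0.655, 0.614 and 0.599 on day 3, where all differently numbered pairs were negative. The numbers were taken as pairs there. For same-numbered libraries the correlation was 0.120 and -0.106 on day 0, 0.265, -0.259 and -0.467 on day 6, and 0.196, 0.179 and -0.459 on day 9. Differently numbered pairs reached 0.676 on day 6 and 0.665 on day 9, so a value of that size alone does not show pairing. Alternatives changed the scaling, pseudocount, filter, test, libraries and covariates. Counts of members under an alternative are given without the share of all genes called. Figures were drawn with matplotlib 3.10.9. The values of 1 member are not reported here, and it is kept in the counts.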

Additional observations from a re-analysis of the deposited data

Results flagged for a closer look

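Cox6a2, the heart and muscle form of a complex IV subunit, was the one member whose change from day 0 differed between KO and WT cells in the test of the difference itself, taken over days 3, 6 and 9 jointly (adjusted p = 0.0427 by limma's F test over 15159 genes). Its level on day 9 was higher in 3 of 3 KO libraries than in any WT library. It passed the filter for testing only through those KO libraries. The adjusted p of the joint test was 0.855 with a pseudocount of 0.1, 0.999996 with voom on recovered reads and 0.550 with the replicate block. The call was lost in 19 of the 24 fits that left out 1 library, with an adjusted p between 0.0522 and 0.193 in those 19. The highest values were 0.193 without WT day 9 replicate 2, 0.160 without KO day 9 replicate 2, 0.146 without WT day 9 replicate 1 and 0.132 without KO day 9 replicate 1.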

How the results depend on the processing

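The counts of members called moved with several settings, and the cause was not tested. They stand without the share of all genes called under the same setting. Between KO and WT cells on day 9 the 1 call became 0 with a pseudocount of 0.1, a filter of 5 FPKM, voom, the replicate block, and a fit to the groups compared alone, and the joint test gave 0 with a pseudocount of 0.1, the filter of 5 FPKM, voom, the block, and without WT day 9 replicate 1 and KO day 6 replicate 3. For WT day 3 the 16 calls became 2 under TPM, 7 with the replicate block, 32 with the groups alone and 30 with the short-gene covariate. For KO day 3 the 16 became 2, 3, 47 and 26 in the same order. For WT day 6 the 20 became 6 under TPM, 31 scaled to longer genes and 43 with the covariate. For WT day 9 the 12 became 49 under TPM, 21 with equal sums, 21 scaled to longer genes, 31 with the covariate and 27 without the 2 libraries named above. For KO day 6 the 14 became 25 with equal sums, 5 with the block, 32 without replicate 3 of both genotypes, 22 scaled to longer genes, 40 with the covariate and 38 without the 2 libraries. For KO day 9 the 14 became 31 under TPM, 6 with the block and 34 with the covariate. With the block WT day 6 had 15 calls and WT day 9 had 12. The scaling to longer genes, the covariate and the removal of those 2 libraries were chosen after seeing the data.

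Leaving out 1 library at a time gave between 4 and 14 calls for WT day 3, 14 and 25 for WT day 6, 9 and 16 for WT day 9, 8 and 11 for KO day 3, 8 and 31 for KO day 6, and 9 and 14 for KO day 9. It gave 1 in each fit for KO against WT on day 9, 0 on days 0, 3 and 6, and between 0 and 1 for the joint test. WT day 3 had 7 without WT day 0 replicate 1, 10 without WT day 0 replicate 3, 8 without WT day 3 replicate 1 and 4 without WT day 3 replicate 3. KO day 3 had 8 without KO day 0 replicate 2, 10 without the unnumbered library and 9 without KO day 3 replicate 3. KO day 6 had 9 without KO day 0 replicate 2, 8 without the unnumbered library, 9 without KO day 6 replicate 2 and 31 without KO day 6 replicate 3. KO day 9 had 9 without KO day 0 replicate 1 or KO day 9 replicate 3. The members' median difference of KO from WT ran from 0.00325 to 0.0848 on day 0, -0.0113 to 0.130 on day 3, -0.402 to 0.175 on day 6 and -0.471 to 0.0799 on day 9 with 1 library left out, a setting added after seeing the data, and changed sign without KO day 3 replicate 1, KO day 6 replicate 3 and WT day 9 replicate 3.

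Under TPM the WT day 9 differences of Atp5a1 (0.15), Cox5a (0.26) and Sdhc (0.27) turned positive, and the level above all genes was 2.78 for complex I on KO day 3, 3.52 for complex II and 4.42 for complex III on KO day 0. Of 750 alternative values for 44 named differences, 603 kept direction and side of the threshold, 144 no longer passed and 3 reversed. The settings were not alike in this. Under TPM 16 of 43 kept both, 24 no longer passed and 3 reversed. With the replicate block 28 of 43 kept both and 15 no longer passed.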
